A study of Mus musculus with 26 samples.

Results

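The nuclear-encoded subunits of respiratory complexes II, III, IV and V were followed by RNA-seq through 7 groups of mouse embryonic stem cells (ESCs) with or without the orphan nuclear receptor ERR beta. The members were every gene whose symbol is Sdha, Sdhb, Sdhc, Sdhd or Cyc1 or begins with Uqcr, Cox4 to Cox8 or Atp5, provided it had at least 10 counts over all 26 libraries. Of 24421 genes in the deposited count table, 48 symbols matched and 47 passed. The symbol that did not pass was Cox8b, the heart and muscle isoform of subunit 8, with 1 count. Complex II had 4 members, complex III 9, complex IV 17 and complex V 15. The other 2, Atp5s and Atp5sl, matched by symbol only: they are older names of Dmac2l and Dmac2, which are not counted here as ATP synthase subunits. Members lay on 18 chromosomes. Cox4i1 was the 1 member on chromosome 8, and none lay on chromosome 6 or 14. The table held no gene of the mitochondrial genome, so the mitochondrially encoded core subunits were not analysed here.

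Every group, the controls included, received doxycycline (2 µg/ml) over 3 days from 1600 seeded cells. WT_mock cells had the wild-type genotype and no ectopic receptor. The other 6 groups had the genotype ERR beta -/-. KO_mock had no ectopic receptor, and KO_ERRb_wt made wild-type ERR beta from a doxycycline-inducible construct. KO_ERRb_DBDm3 carried an ERR beta mutant deficient in DNA binding, KO_ERRb_DBDm6 a mutant deficient in binding TFIIH, a general transcription factor, and KO_ERRb_AF2M6 a mutant deficient in binding coactivators. KO_ERRg_wt carried wild-type ERR gamma, a close relative of ERR beta. Each group was 2 clones, given below in the order of their labels: 5-2 and 5-5 for WT_mock, 12-1 and 12-3 for KO_mock, 8-3 and 8-4 for KO_ERRb_wt, 9-6 and 9-8 for KO_ERRb_DBDm3, 10-24 and 10-26 for KO_ERRb_DBDm6, 32-25 and 32-31 for KO_ERRb_AF2M6, and 14-1-10 and 14-11 for KO_ERRg_wt. The labels differ on whether the serum-free medium held LIF besides the inhibitors abbreviated PD and CH.

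The respiratory chain, in the inner mitochondrial membrane, passes electrons from NADH and succinate to oxygen and moves protons across that membrane. ATP synthase uses the resulting proton gradient to make ATP. Complex II (succinate dehydrogenase) hands electrons from succinate to ubiquinone, complex III passes them from ubiquinol to cytochrome c, complex IV (cytochrome c oxidase) delivers them to oxygen, and complex V is ATP synthase. Several small subunits of complex IV exist as isoforms encoded by separate genes, some of them largely restricted to heart and skeletal muscle, lung or testis. ERR alpha and ERR gamma are known as activators of such genes in heart and muscle, and ERR beta is part of the transcription factor network of naive ESCs.

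Libraries held 21276790 to 30021667 counts, and the clone was the unit of replication. The 2 libraries of a clone were summed, so n = 2 clones per group. KO_ERRg_wt clones had 1 library each, and the column names of these end in 2, as those of second libraries do elsewhere. Levels are CPM, counts scaled to library size with TMM factors. Fold changes are log2 values ± standard error from edgeR's quasi-likelihood test fitted to all 14 clones, and a gene was called when its p, adjusted by Benjamini-Hochberg over all 15238 genes tested, was below 0.05. Of the members, 46 were tested, and Cox8c was below the filter on low counts. Esrrb, the targeted gene, stood at 602 and 560.2 CPM in WT_mock, 277 and 276 in KO_mock, 429 and 410 in KO_ERRb_wt, 482 and 553 in KO_ERRb_DBDm3, 509.5 and 551 in KO_ERRb_DBDm6, 464 and 438 in KO_ERRb_AF2M6, and 477 and 466 in KO_ERRg_wt. It was lower in KO_mock than in WT_mock (-1.07 ± 0.0744, adjusted p = 3.42e-05). In groups with an ERR beta construct the counts do not separate it from the endogenous gene. KO_ERRg_wt carried ERR gamma instead, and its Esrrb level was also above that of KO_mock. Esrrg stood at 229 and 124 CPM in KO_ERRg_wt and at 0 to 12 counts in every other clone. The 8 ESC markers summed to 3204 to 4516 CPM across clones, with Pou5f1 at 706 to 944 CPM, and were highest in KO_ERRg_wt (4387 and 4516 CPM). The 8 fibroblast feeder markers summed to at most 7.15 CPM, with Postn at 0, the 8 primitive endoderm markers to 11.7 to 107.5 CPM and the 8 trophoblast markers to 59.1 to 190.5 CPM. In bulk RNA fewer cells of a type and less RNA per cell cannot be told apart. Genes of chromosome 14 were lower in KO_mock than in WT_mock (median -0.609 over 515 genes), and those of chromosomes 6 and 8 were lower in the 3 mutant groups and KO_ERRg_wt than in KO_mock (medians -0.377 to -0.961 and -0.492 to -0.552). Only Cox4i1 among the members lay on any of these chromosomes, and it is described apart. KO_ERRb_wt against KO_mock had medians of 0.012 for chromosome 6 and 0.013 for chromosome 8. The mutant and ERR gamma groups thus differed from KO_mock and KO_ERRb_wt both in receptor and in these chromosomes. The 2 cannot be told apart in these clones, for members on other chromosomes too.

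Per kilobase of exon, the highest member of each complex was Sdhd for complex II (142 CPM per kb), Uqcr11 for complex III (330), Cox7c for complex IV (642, with Cox4i1 at 636) and Atp5b for complex V (1230). Among the 40 tested members above 20 CPM on average, the highest group mean was 1.12 to 1.78 times the lowest, with a median of 1.27. Only 5 of them exceeded 1.5: Cox6b2 (1.78), Uqcrq (1.66), Cox5a (1.64), Cox7a2l (1.61) and Cox5b (1.53). Of the 46 tested members, 19 had their highest group mean in KO_ERRg_wt and 16 in KO_ERRb_DBDm6, and 30 had their lowest in WT_mock (17) or KO_mock (13). Such counts were not made over all genes, so these do not set the members apart from genes in general.

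Summed over its members, complex V was lowest in WT_mock at 5545 ± 21.9 CPM (SD, n = 2), with KO_mock at 5708 ± 18.7 and KO_ERRb_wt at 5740 ± 14.3. It was highest in KO_ERRb_DBDm6 at 7033 ± 48.6 CPM, with KO_ERRg_wt at 6761 ± 99.6, KO_ERRb_AF2M6 at 6662 ± 188 and KO_ERRb_DBDm3 at 6345 ± 120. The 8 clones of the mutant and ERR gamma groups all lay above the 6 clones of WT_mock, KO_mock and KO_ERRb_wt. Most of this sum was Atp5b (2310 CPM on average over all clones) and Atp5a1 (1840), so it mainly follows these genes. Not every member moved with it: Atp5e, Atp5j, Atp5j2 and Atp5l were called in 0 comparisons. Atp5k was lower in KO_ERRb_DBDm6 and KO_ERRg_wt than in KO_mock. Complex IV ran from 2338 ± 2.22 CPM in WT_mock to 2722 ± 35.2 in KO_ERRg_wt, complex III from 1458 ± 1.2 in WT_mock to 1675 ± 18.7 in KO_ERRb_DBDm6, and complex II from 632.1 ± 39.2 in KO_ERRb_DBDm3 to 727.5 ± 13.7 in KO_ERRb_DBDm6.

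**Figure D1:**
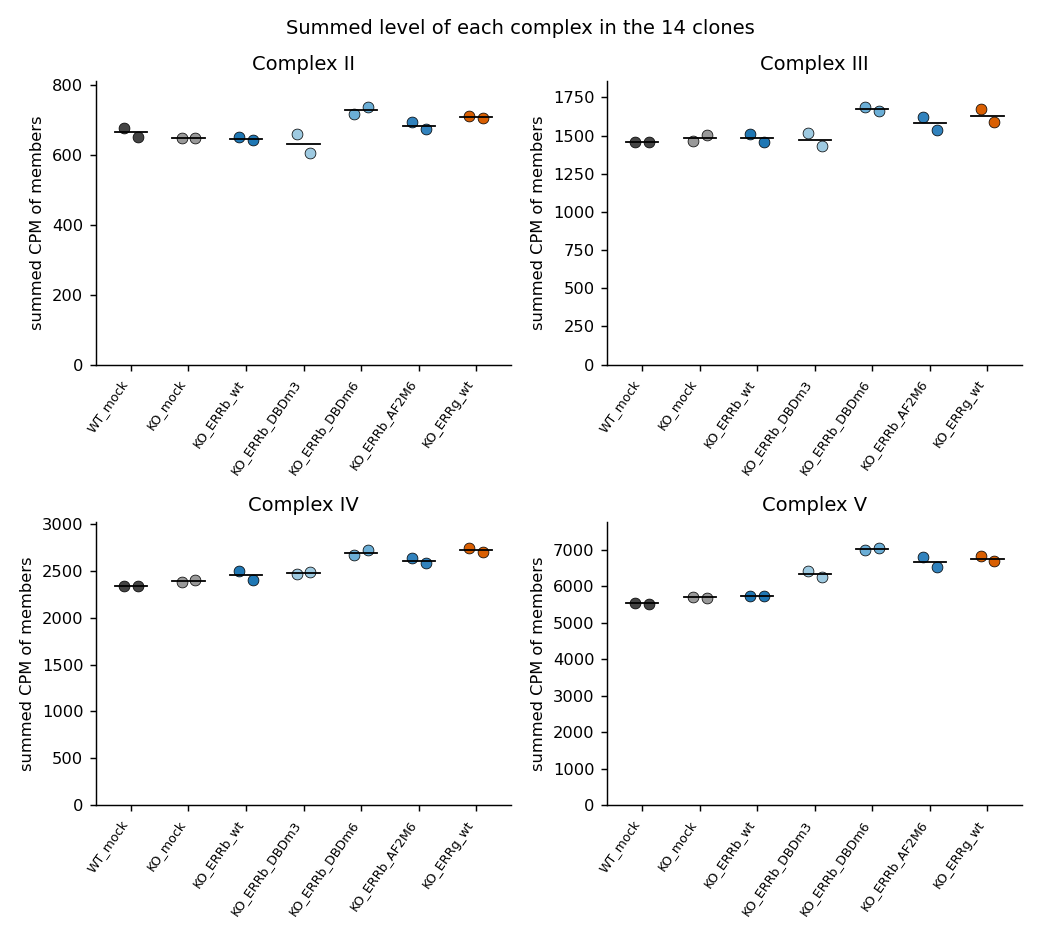
Summed CPM of the members of complexes II, III, IV and V (vertical axes from 0) in the 7 groups, with 1 point per clone and a line at the mean of the 2 clones. Complex V lies between 5529 and 5750 CPM in the clones of WT_mock, KO_mock and KO_ERRb_wt and between 6260 and 7068 in those of the other 4 groups. Atp5b and Atp5a1 make up most of the complex V sum.

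Between KO_mock and WT_mock, members were called less often than genes in general in the fit to all clones. These groups also differed on chromosome 14, as given above, so loss of ERR beta and that shift cannot be told apart. In KO_mock against WT_mock, 8 of 46 tested members were called (17.4%), while 37.4% of all genes were. Higher in KO_mock were 5 members (18% of all genes were higher): Uqcrh, Uqcr10, Atp5g3, Atp5o and Atp5h, at 0.18 to 0.31 on the log2 scale. Lower were 3 (19.4% of all genes): Cox7a1 (-0.72 ± 0.179, adjusted p = 0.00962), Uqcrc2 (-0.21 ± 0.0662, adjusted p = 0.0305) and Atp5s (-1.02 ± 0.23, adjusted p = 0.00582). The median of the 46 was 0.03, beside -0.003 over all genes. None of the 8 calls was kept whichever clone was left out: 1 member was called without WT_mock clone 5-2, 2 without KO_mock clone 12-1 and 2 without clone 12-3. A fit to these 2 groups alone called 14, and scaling by library totals only gave 1 higher and 6 lower. For these and the other alternative fits below, the share of all genes called was not computed. In the same comparison 4 of 8 primitive endoderm markers were lower (median -1.31), with sums of 43.5 to 44 CPM in KO_mock and 54.6 in both WT_mock clones. Of 7 tested trophoblast markers 1 was higher and 3 lower, with sums of 59.1 to 64.3 and 78.6 to 79.4 CPM. Of 8 ESC markers 1 was higher and 4 lower, with sums of 3204 to 3219 and 3687 to 3904 CPM. The part of these marker shifts was not tested.

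Wild-type ERR beta put back into the knockout moved no member past the threshold. In KO_ERRb_wt against KO_mock, 0 of 46 were called by edgeR's quasi-likelihood test, where 1.85% of all genes were called. An unadjusted p below 0.05 was found for 4 of the 46, beside 3008 of all 15238 genes. DESeq2 also called 0. The smallest p belonged to Cox7a1 (0.58 ± 0.179, adjusted p = 0.115) and Cox5a (0.31 ± 0.1, adjusted p = 0.132). Cox5a alone was called in a fit to these 2 groups only, and limma-voom on single libraries called both. Against WT_mock, KO_ERRb_wt had 1 called member (2.17%, beside 10.3% of all genes), Atp5g3 (0.31 ± 0.0686, adjusted p = 0.0179). That call was lost without WT_mock clone 5-2 and without KO_ERRb_wt clone 8-4.

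The DNA-binding mutant group had 9 called members against KO_mock (19.6%, beside 25.7% of all genes). Higher were 6 (12.4% of all genes): Cox5b, Cox7a2l, Atp5g2, Cox6a1, Atp5b and Atp5a1, at 0.18 to 0.43. Lower were 3 (13.3% of all genes): Uqcrb (-0.27 ± 0.0581, adjusted p = 0.00629), Cox4i1 and Sdhd. Cox5b alone kept its call whichever clone was left out, 4 members were called without KO_mock clone 12-1 and 2 without clone 12-3. A fit to the 2 groups alone called 0 by edgeR (5 at an unadjusted p below 0.05), and TMM without chromosomes 6, 8 and 14 gave 3 higher and 5 lower. Of 7 tested trophoblast markers 2 were higher and 4 lower (median -1.3), although their sum, most of it Tfap2c, was 119.1 to 190.5 CPM here and 59.1 to 64.3 in KO_mock. The primitive endoderm markers, 0 of 8 called, summed to 11.7 to 56.7 and 43.5 to 44 CPM. Of 8 ESC markers 3 were higher and 1 lower, with sums of 3643 to 3664 and 3204 to 3219 CPM. The part of these marker shifts was not tested.

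Against KO_ERRb_wt, KO_ERRb_DBDm3 had 12 called members (26.1%, beside 32.1% of all genes), 7 higher (15.3% of all genes) and 5 lower (16.8%). The higher members were Cox7a2l, Atp5g2, Cox5b, Atp5c1, Atp5a1, Atp5b and Atp5h. The lower members were Cox4i2, Cox7a1, Uqcrq, Uqcrb and Cox4i1. Calls of Uqcrb, Cox7a2l and Cox7a1 were kept whichever clone was left out, and 4 members were called without KO_ERRb_wt clone 8-3 and 6 without clone 8-4. A fit to the 2 groups alone called 0 by edgeR (4 at an unadjusted p below 0.05), library totals gave 2 higher and 7 lower, and TMM without chromosomes 6, 8 and 14 gave 4 and 6.

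In the TFIIH-binding mutant group most called members were higher than in KO_mock. In KO_ERRb_DBDm6 against KO_mock, 23 of 46 were called (50%, beside 41.4% of all genes), 20 higher (20.8% of all genes) and 3 lower (20.6%). The median of the 46 was 0.22, beside 0.002 over all genes. Complex II had 2 of 4 members higher, complex III 4 of 9, complex IV 7 of 16 tested and complex V 6 of 15. The lower members were Uqcrh, Atp5k and Sdhd. Whichever clone was left out, 15 calls were kept: Sdha, Sdhb, Uqcrc1, Uqcrc2, Uqcrfs1, Cyc1, Cox5a, Cox5b, Cox7a2l, Cox8a, Atp5a1, Atp5b, Atp5c1, Atp5f1 and Atp5g2. The trophoblast markers, 7 of 8 of them tested, had 2 called higher and 2 lower in the same comparison. They summed to 130.6 to 138.4 CPM here, most of it Tfap2c, and to 59.1 to 64.3 in KO_mock, with Elf5 at 5 counts over all clones. The primitive endoderm markers, 0 of 8 called, summed to 15.5 to 17.8 CPM here and to 43.5 to 44 in KO_mock, most of it Lama1. Of 8 ESC markers 5 were called higher and 3 lower, with sums of 3857 to 4065 CPM here and 3204 to 3219 in KO_mock. The part of these shifts in the members' differences was not tested.

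Against KO_ERRb_wt, KO_ERRb_DBDm6 had 20 called members (43.5%, beside 39% of all genes), 19 higher (19.1% of all genes) and 1 lower (20%), Atp5sl. The median was 0.15, beside -0.015 over all genes. Calls of Sdhb, Uqcr10, Uqcrc2, Cox5b, Cox7a2l, Atp5a1, Atp5b, Atp5c1, Atp5f1, Atp5g2 and Atp5h, 11 in all, were kept whichever clone was left out. Library totals gave 16 higher and 3 lower.

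The coactivator-binding mutant group had 15 called members against KO_mock (32.6%, beside 37.1% of all genes), 14 higher (18% of all genes) and 1 lower (19.1%), Sdhd. The median was 0.15, beside 0.007 over all genes. Sdhb, Cox5b, Cox7a2l, Atp5b and Atp5f1 kept their calls whichever clone was left out. Without KO_mock clone 12-1, without clone 12-3 and without KO_ERRb_AF2M6 clone 32-25 the count was 9 each time, and TMM without chromosomes 6, 8 and 14 gave 11 higher and 3 lower. Of 7 tested trophoblast markers 2 were higher and 1 lower (median -0.38), although their sum, most of it Tfap2c, was 130.7 to 189.6 CPM here and 59.1 to 64.3 in KO_mock. The primitive endoderm markers, 1 of 8 lower, summed to 15.7 to 17.2 and 43.5 to 44 CPM. Of 8 ESC markers 4 were higher and 2 lower, with sums of 3630 to 3830 and 3204 to 3219 CPM. The part of these marker shifts was not tested.

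Against KO_ERRb_wt, KO_ERRb_AF2M6 had 11 called members (23.9%, beside 43.2% of all genes), all 11 higher (20.3% of all genes) and 0 lower (22.8%). Of these, Sdhb, Uqcr10, Cox7a2l, Atp5b and Atp5c1 kept their calls whichever clone was left out. The count was 7 without KO_ERRb_wt clone 8-4 and 7 without KO_ERRb_AF2M6 clone 32-25, and library totals gave 8 higher and 1 lower.

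ERR gamma cells had 23 called members against KO_mock (50%, beside 38.3% of all genes), 19 higher (20% of all genes) and 4 lower (18.3%). The median was 0.19, beside 0.003 over all genes. Complex II had 2 of 4 members higher, complex III 3 of 9, complex IV 8 of 16 tested and complex V 6 of 15. The lower members were Uqcrh, Sdhd, Atp5k and Cox4i1. Calls of Sdhb, Sdhd, Uqcrc2, Uqcrh, Uqcrq, Cyc1, Cox5a, Cox5b, Cox6a1, Cox6a2, Cox7a1, Atp5b and Atp5f1, 13 in all, were kept whichever clone was left out. The count was 15 without KO_ERRg_wt clone 14-11 and 35 in a fit to the 2 groups alone. The trophoblast markers, 7 of 8 of them tested, had 2 called higher and 1 lower in the same comparison. They summed to 106.1 to 113.7 CPM here, most of it Tfap2c, and to 59.1 to 64.3 in KO_mock, with Elf5 at 5 counts over all clones. The primitive endoderm markers, 1 of 8 higher and 0 lower, summed to 97.6 to 107.5 CPM here and to 43.5 to 44 in KO_mock, most of it Lama1. Of 8 ESC markers 5 were called higher and 2 lower (median 0.72), with sums of 4387 to 4516 CPM here and 3204 to 3219 in KO_mock. The part of these shifts in the members' differences was not tested.

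Against KO_ERRb_wt, KO_ERRg_wt had 22 called members (47.8%, beside 25.4% of all genes), 20 higher (13.5% of all genes) and 2 lower (11.9%), Uqcrh and Sdhd. The median was 0.20, beside -0.004 over all genes. Sdhb, Uqcrq, Cox6a1, Cox6a2, Atp5b and Atp5h kept their calls whichever clone was left out. The count was 10 without KO_ERRb_wt clone 8-4, 9 without KO_ERRg_wt clone 14-1-10 and 11 without clone 14-11. Comparisons against KO_mock share its 2 clones, as those against KO_ERRb_wt share theirs, so they are not independent of each other. Markers of other cell types also differed from KO_ERRb_wt, where the primitive endoderm markers summed to 67.6 to 96 CPM and the trophoblast markers to 67 to 72.7. Of 8 primitive endoderm markers 0 were higher, and KO_ERRb_DBDm3 had 2 lower, KO_ERRb_DBDm6 had 3, KO_ERRb_AF2M6 had 3 and KO_ERRg_wt had 0. Of 7 tested trophoblast markers 2 were higher in each of these groups, and 4, 4, 3 and 2 were lower in the same order. Of 8 ESC markers 1, 3, 2 and 5 were higher in that order, and 2 were lower in each group. The part of these marker shifts was not tested. Differences between the mutant groups, or between a mutant and ERR gamma, were not tested. In all 11 comparisons, a call not listed above as kept was lost when at least 1 of the 4 clones compared was left out.

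**Figure D2:**
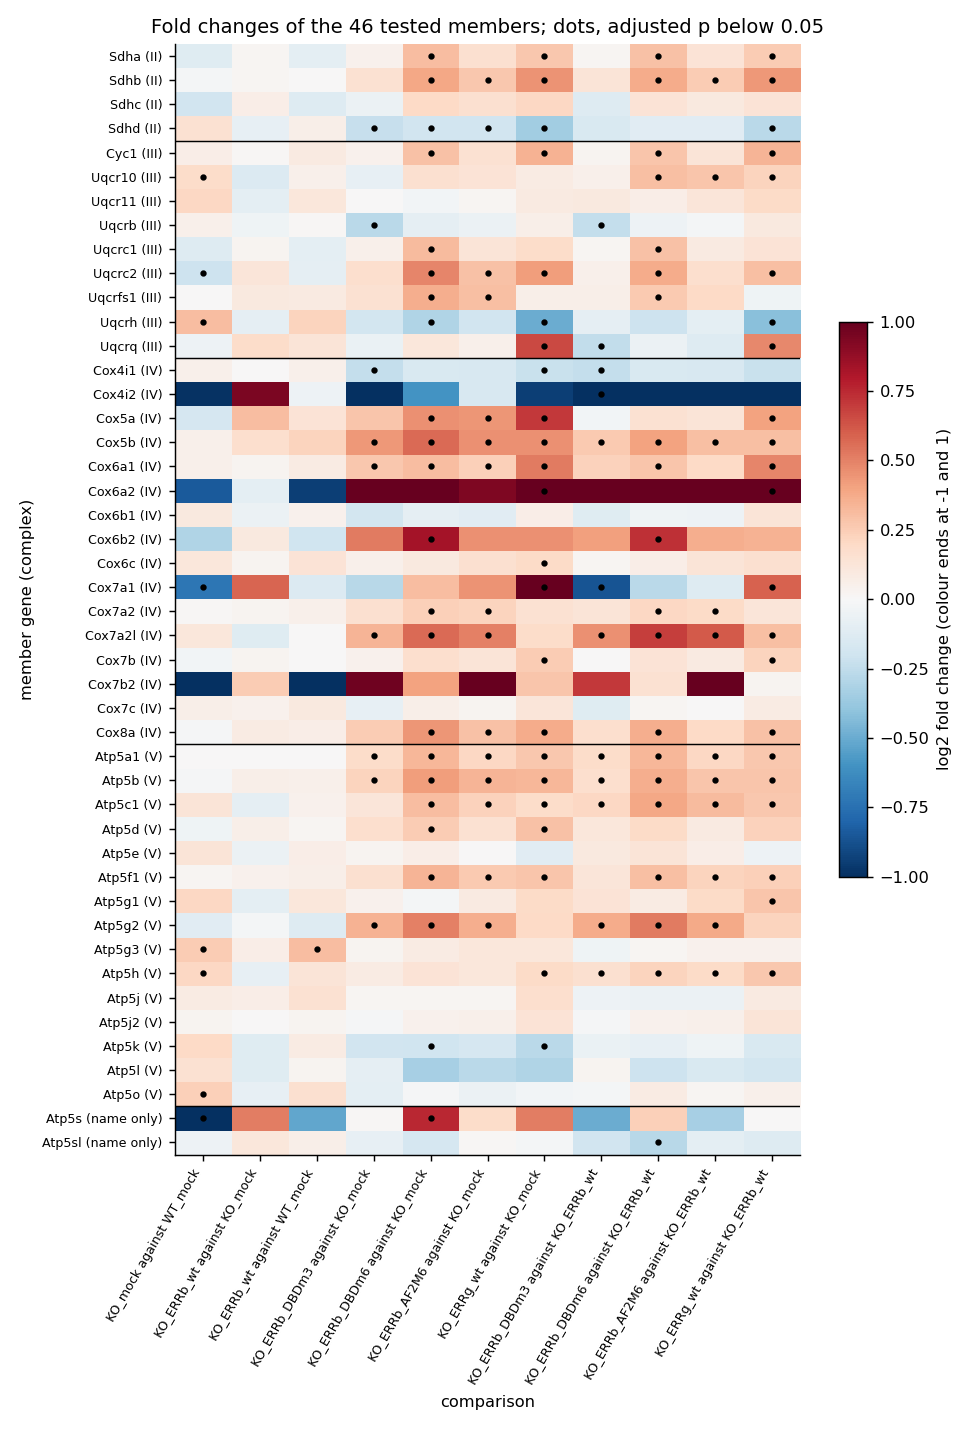
Log2 fold changes of the 46 tested members (rows, grouped by complex) in the 11 comparisons (columns), as colours that end at -1 and 1, with a dot where the adjusted p was below 0.05. The column of KO_ERRb_wt against KO_mock has 0 dots, and those of KO_ERRb_DBDm6 and KO_ERRg_wt against KO_mock have 23 each.

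The RefSeq promoter table (GRCm38.p6, 250 bases before to 50 after each start site) held windows for 36 of the 47 members, 40 windows in all. Atp5a1, Cox4i1, Cox4i2, Cox6a2, Cox6c, Cox8c, Cyc1, Sdhc, Uqcrb, Uqcrc2 and Uqcrq had none there. Windows were searched on both strands for AAGGTCA, the core motif bound by ERR receptors, and for the extended form TCAAGGTCA, which contains it. The core motif was in the windows of 5 members (13.9%), beside 5.38% of all 27025 genes, and the extended form in 2 (5.6%), beside 0.466%. The stretches around the 5 matches are shown because ERR beta and ERR gamma are the factors varied in these cells. The capitals mark the core motif, written TGACCTT where it lies on the other strand, and each is read 5′ to 3′ along the gene's own strand, which is minus in all 5.
Atp5g3, chr2:73911327-73911438: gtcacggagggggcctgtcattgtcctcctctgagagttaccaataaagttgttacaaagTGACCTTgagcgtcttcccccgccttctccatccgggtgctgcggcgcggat
Sdhd, chr9:50603800-50603824: gggttgtagagTGACCTTgagccct
Atp5l, chr9:44920743-44920815: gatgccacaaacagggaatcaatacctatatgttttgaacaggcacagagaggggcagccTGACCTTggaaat
Atp5e, chr2:174464060-174464088: ctactcaggccTGACCTTcctgctgccgg
Atp5k, chr5:108434359-108434387: cttccggcgcgAAGGTCAcggacaaaatg
In Atp5g3 and Sdhd the TGACCTT is followed by GA, which makes the extended form. The match began 52 bases before the start site in Atp5g3 and 13 before it in Atp5l, and 36, 24 and 23 bases after it in Sdhd, Atp5e and Atp5k. None of these 5 genes was called higher in KO_ERRg_wt than in KO_mock: the log2 differences were 0.11 ± 0.0687 for Atp5g3, -0.35 ± 0.0704 for Sdhd, -0.30 ± 0.308 for Atp5l, -0.11 ± 0.0636 for Atp5e and -0.27 ± 0.0743 for Atp5k, of which Sdhd and Atp5k fell. Both KO_ERRg_wt clones of Atp5g3 lay above both KO_mock clones, without a call. None of the other motifs searched contains the ERR core. The NRF1 core GCGCATGC was in 7 members (19.4%, beside 3.05% of all genes), the ETS site CCGGAAGT in 4 (11.1%, beside 4.31%) and the YY1 site AAGATGGC in 4 (11.1%, beside 3.19%). A match is a description of letters, not a bound site.

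Complex II has 2 catalytic subunits and 2 membrane anchors. Both catalytic subunits rose in KO_ERRb_DBDm6 and KO_ERRg_wt against KO_mock, and 1 of the 2 anchors fell. Sdhb (mm10 chr4:140961271-140979192, plus strand), the iron-sulfur subunit, was at 106 and 100.4 CPM in WT_mock, 102 and 101 in KO_mock, 104 and 102 in KO_ERRb_wt, 118 and 107 in KO_ERRb_DBDm3, 131 and 136 in KO_ERRb_DBDm6, 122 and 123 in KO_ERRb_AF2M6, and 138 and 140.5 in KO_ERRg_wt. Both clones of the 2 highest groups, KO_ERRg_wt and KO_ERRb_DBDm6, lay above every clone of the other 5 groups. Sdhb rose in KO_ERRg_wt (0.45 ± 0.0607, adjusted p = 0.000258), KO_ERRb_DBDm6 (0.39 ± 0.0604, adjusted p = 0.000503) and KO_ERRb_AF2M6 (0.27 ± 0.0603, adjusted p = 0.00517) against KO_mock, and in the same 3 groups against KO_ERRb_wt.

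Sdha, the flavoprotein that oxidises succinate, was at 278 and 262 CPM in WT_mock, 251 and 245 in KO_mock, 256 and 247 in KO_ERRb_wt, 265 and 244 in KO_ERRb_DBDm3, 298 and 316 in KO_ERRb_DBDm6, 288 and 264 in KO_ERRb_AF2M6, and 293 and 306 in KO_ERRg_wt. The clones of KO_ERRb_DBDm6 and KO_ERRg_wt overlapped each other and lay above all the rest. Sdha rose in KO_ERRb_DBDm6 (0.31 ± 0.0664, adjusted p = 0.00367) and KO_ERRg_wt (0.27 ± 0.0666, adjusted p = 0.00811) against KO_mock.

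Sdhd (mm10 chr9:50596340-50603849, minus strand) is a cytochrome b anchor, and its promoter stretch is shown above. It was at 182 and 188 CPM in WT_mock, 204 and 206 in KO_mock, 189.8 and 197 in KO_ERRb_wt, 184 and 166 in KO_ERRb_DBDm3, 182 and 177 in KO_ERRb_DBDm6, 186 and 172 in KO_ERRb_AF2M6, and 168 and 152 in KO_ERRg_wt. The KO_mock clones were the highest, and every clone of the mutant and ERR gamma groups lay below them. Sdhd fell against KO_mock in KO_ERRg_wt (-0.35 ± 0.0704, adjusted p = 0.00268), KO_ERRb_DBDm3 (-0.23 ± 0.07, adjusted p = 0.0334), KO_ERRb_DBDm6 (-0.19 ± 0.07, adjusted p = 0.0467) and KO_ERRb_AF2M6 (-0.19 ± 0.07, adjusted p = 0.0486). The call in KO_ERRb_AF2M6 was lost with RLE size factors and without the filter on low counts, and those in all 3 mutant groups were lost without either KO_mock clone. Sdhc, the other anchor, ran from 86.8 to 112 CPM and was called in none of the 11 comparisons.

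Complex III holds catalytic subunits, core proteins and small accessory subunits. Uqcrq (mm10 chr11:53428948-53430831, minus strand), a small accessory subunit, was at 46.3 and 45 CPM in WT_mock, 43.9 and 44.4 in KO_mock, 53.7 and 46 in KO_ERRb_wt, 44.4 and 39.5 in KO_ERRb_DBDm3, 49.3 and 46.1 in KO_ERRb_DBDm6, 44.1 and 47.2 in KO_ERRb_AF2M6, and 71.2 and 68.2 in KO_ERRg_wt. Both KO_ERRg_wt clones stood apart from all 12 others, whose highest was 53.7 CPM. The rise in KO_ERRg_wt was 0.66 ± 0.0878, adjusted p = 0.000245 against KO_mock and 0.48 ± 0.0874, adjusted p = 0.0025 against KO_ERRb_wt. In KO_ERRb_DBDm3 it was lower than in KO_ERRb_wt (-0.25 ± 0.0872, adjusted p = 0.0484), a call that DESeq2 did not make.

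Uqcrh (mm10 chr4:116066965-116075070, minus strand), the acidic hinge protein that meets cytochrome c, went the other way. Its level was 156 and 172 CPM in WT_mock, 196 and 209 in KO_mock, 186 and 194 in KO_ERRb_wt, 185 and 173 in KO_ERRb_DBDm3, 175 and 154 in KO_ERRb_DBDm6, 179.8 and 175 in KO_ERRb_AF2M6, and 152 and 133 in KO_ERRg_wt. KO_mock clones were the highest and KO_ERRg_wt clones the lowest. Uqcrh rose in KO_mock against WT_mock (0.31 ± 0.0849, adjusted p = 0.0162), and fell against KO_mock in KO_ERRg_wt (-0.50 ± 0.0854, adjusted p = 0.00101) and KO_ERRb_DBDm6 (-0.30 ± 0.0849, adjusted p = 0.0153).

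Uqcrc2 (mm10 chr7:120635189-120659523, plus strand), a core protein, was at 217 and 203 CPM in WT_mock, 178 and 187 in KO_mock, 197 and 199 in KO_ERRb_wt, 202 and 208 in KO_ERRb_DBDm3, 249.7 and 261 in KO_ERRb_DBDm6, 235 and 211 in KO_ERRb_AF2M6, and 249.6 and 236 in KO_ERRg_wt. KO_mock held the 2 lowest clones and KO_ERRb_DBDm6 the 2 highest. It fell in KO_mock against WT_mock (-0.21 ± 0.0662, adjusted p = 0.0305) and rose against KO_mock in KO_ERRb_DBDm6 (0.49 ± 0.0663, adjusted p = 0.000236), KO_ERRg_wt (0.42 ± 0.0665, adjusted p = 0.000722) and KO_ERRb_AF2M6 (0.29 ± 0.0662, adjusted p = 0.00514). Uqcrc1, the other core protein, ran from 338 to 437 CPM and rose only in KO_ERRb_DBDm6, by 0.32 ± 0.0672, adjusted p = 0.0031 against KO_mock.

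Cyc1, the cytochrome c1 subunit that reduces cytochrome c, was at 159 and 154 CPM in WT_mock, 166 and 163 in KO_mock, 174 and 158 in KO_ERRb_wt, 176 and 163 in KO_ERRb_DBDm3, 204 and 199 in KO_ERRb_DBDm6, 187 and 177 in KO_ERRb_AF2M6, and 217 and 203 in KO_ERRg_wt. Clones of KO_ERRg_wt and KO_ERRb_DBDm6 did not overlap those of KO_mock. Cyc1 rose in KO_ERRg_wt (0.35 ± 0.067, adjusted p = 0.00198) and KO_ERRb_DBDm6 (0.29 ± 0.0668, adjusted p = 0.00495) against KO_mock.

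Uqcrfs1, the Rieske iron-sulfur protein, was at 91.1 and 101 CPM in WT_mock, 96.4 and 95.3 in KO_mock, 99.1 and 106 in KO_ERRb_wt, 113 and 99.9 in KO_ERRb_DBDm3, 122 and 124 in KO_ERRb_DBDm6, 126 and 109 in KO_ERRb_AF2M6, and 101 and 98.4 in KO_ERRg_wt. Both KO_ERRb_DBDm6 clones and both KO_ERRb_AF2M6 clones lay above those of KO_mock, KO_ERRb_wt and KO_ERRg_wt. It rose against KO_mock in KO_ERRb_DBDm6 (0.36 ± 0.0856, adjusted p = 0.00645) and KO_ERRb_AF2M6 (0.30 ± 0.0856, adjusted p = 0.0183), and in KO_ERRg_wt the difference was 0.06 ± 0.0862, adjusted p = 0.621.

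Uqcr10, another small accessory subunit, was at 119 and 122 CPM in WT_mock, 134 and 139.5 in KO_mock, 128 and 120.4 in KO_ERRb_wt, 135 and 123 in KO_ERRb_DBDm3, 155 and 151 in KO_ERRb_DBDm6, 149.9 and 152 in KO_ERRb_AF2M6, and 148 and 142 in KO_ERRg_wt. Its WT_mock clones were below both KO_mock clones (0.18 ± 0.0631, adjusted p = 0.0388). It rose against KO_ERRb_wt in KO_ERRb_DBDm6 (0.30 ± 0.063, adjusted p = 0.00341), KO_ERRb_AF2M6 (0.28 ± 0.063, adjusted p = 0.0044) and KO_ERRg_wt (0.22 ± 0.0633, adjusted p = 0.025). Uqcr11, the highest of the complex per kilobase, was at 124 and 130.1 CPM in WT_mock, 146 and 148 in KO_mock, 144 and 129.9 in KO_ERRb_wt, 156 and 138 in KO_ERRb_DBDm3, 151 and 138 in KO_ERRb_DBDm6, 147 and 150.1 in KO_ERRb_AF2M6, and 165 and 147 in KO_ERRg_wt. WT_mock was the lowest group by its mean, and Uqcr11 was called nowhere. Uqcrb, an accessory subunit near the ubiquinone site, ran from 134 to 175 CPM and fell in KO_ERRb_DBDm3 alone, also against KO_ERRb_wt (-0.24 ± 0.0581, adjusted p = 0.00998).

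Complex IV, outside chromosome 8, had 9 subunits made in most tissues, and 6 of these 9 rose in KO_ERRg_wt against KO_mock (20% of all genes), 5 in KO_ERRb_DBDm6 (20.8%), 5 in KO_ERRb_AF2M6 (18%) and 2 in KO_ERRb_DBDm3 (12.4%), with none lower. Cox5a (mm10 chr9:57521232-57532426, plus strand), a matrix-side subunit, was at 112 and 123 CPM in WT_mock, 109 and 100.2 in KO_mock, 123 and 136 in KO_ERRb_wt, 140.1 and 114 in KO_ERRb_DBDm3, 137 and 151 in KO_ERRb_DBDm6, 142 and 141 in KO_ERRb_AF2M6, and 164 and 177 in KO_ERRg_wt. The KO_ERRg_wt clones were the highest of all 14. Cox5a rose against KO_mock in KO_ERRg_wt (0.71 ± 0.101, adjusted p = 0.000371), KO_ERRb_DBDm6 (0.46 ± 0.1, adjusted p = 0.00373) and KO_ERRb_AF2M6 (0.44 ± 0.1, adjusted p = 0.00557), and in KO_ERRg_wt also against KO_ERRb_wt (0.40 ± 0.1, adjusted p = 0.0144).

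Cox5b (mm10 chr1:36691487-36693388, plus strand), the zinc-binding subunit, was at 114 and 124 CPM in WT_mock, 131 and 115 in KO_mock, 135 and 141 in KO_ERRb_wt, 166 and 164 in KO_ERRb_DBDm3, 171 and 193 in KO_ERRb_DBDm6, 170.1 and 169 in KO_ERRb_AF2M6, and 168 and 171 in KO_ERRg_wt. All 8 mutant and ERR gamma clones lay above all 6 clones of the other groups. It was called in 8 of the 11 comparisons, with rises against KO_mock of 0.43 ± 0.0768, adjusted p = 0.00276 in KO_ERRb_DBDm3, 0.57 ± 0.0769, adjusted p = 0.00023 in KO_ERRb_DBDm6, 0.46 ± 0.0768, adjusted p = 0.000858 in KO_ERRb_AF2M6 and 0.46 ± 0.0771, adjusted p = 0.000926 in KO_ERRg_wt.

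Cox6a1, the isoform of subunit 6a found outside muscle, was at 177 and 189 CPM in WT_mock, 206 and 174 in KO_mock, 203 and 186 in KO_ERRb_wt, 232 and 224 in KO_ERRb_DBDm3, 228 and 242 in KO_ERRb_DBDm6, 226 and 221 in KO_ERRb_AF2M6, and 264 and 280.5 in KO_ERRg_wt. KO_ERRg_wt was the highest group and did not overlap KO_mock or KO_ERRb_wt. It rose by 0.52 ± 0.083, adjusted p = 0.000708 in KO_ERRg_wt against KO_mock and by 0.49 ± 0.083, adjusted p = 0.00181 against KO_ERRb_wt.

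Cox8a, the common isoform of subunit 8, was at 175 and 190.1 CPM in WT_mock, 192 and 171 in KO_mock, 198 and 186 in KO_ERRb_wt, 229 and 202 in KO_ERRb_DBDm3, 230.3 and 261 in KO_ERRb_DBDm6, 236 and 206 in KO_ERRb_AF2M6, and 230.4 and 238 in KO_ERRg_wt. Every clone of the mutant and ERR gamma groups lay above every other clone, and KO_ERRb_DBDm6 had the highest mean. The rise against KO_mock was 0.44 ± 0.0956, adjusted p = 0.00369 in KO_ERRb_DBDm6, 0.37 ± 0.0958, adjusted p = 0.0109 in KO_ERRg_wt and 0.29 ± 0.0955, adjusted p = 0.036 in KO_ERRb_AF2M6.

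Cox7a2, the isoform of subunit 7a found outside muscle, was at 161 and 159.5 CPM in WT_mock, 153 and 170.4 in KO_mock, 172 and 159 in KO_ERRb_wt, 179.5 and 182 in KO_ERRb_DBDm3, 199 and 184 in KO_ERRb_DBDm6, 192 and 185 in KO_ERRb_AF2M6, and 186 and 173 in KO_ERRg_wt. Every clone of KO_ERRb_DBDm6 and KO_ERRb_AF2M6 lay above both KO_mock clones (0.24 ± 0.0707, adjusted p = 0.0172 and 0.22 ± 0.0707, adjusted p = 0.0296). Of the rest, Cox6c (178 to 223 CPM) and Cox7b (202 to 258 CPM) rose in KO_ERRg_wt against KO_mock, by 0.19 ± 0.0642 and 0.25 ± 0.0638. Cox6b1 (221 to 290.2 CPM) was called nowhere. Cox7c, the highest of the complex per kilobase, was at 278 and 268 CPM in WT_mock, 280.1 and 290.1 in KO_mock, 297 and 288 in KO_ERRb_wt, 262 and 276 in KO_ERRb_DBDm3, 309 and 286 in KO_ERRb_DBDm6, 293 and 289.9 in KO_ERRb_AF2M6, and 320.1 and 299 in KO_ERRg_wt. Its groups mostly overlapped, and it was called nowhere.

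Cox7a2l (mm10 chr17:83501917-83514333, minus strand) is a relative of subunit 7a that joins complexes III and IV into supercomplexes. It was at 101 and 92 CPM in WT_mock, 103 and 106 in KO_mock, 100.5 and 92.2 in KO_ERRb_wt, 126 and 139 in KO_ERRb_DBDm3, 154 and 156 in KO_ERRb_DBDm6, 151 and 144 in KO_ERRb_AF2M6, and 124 and 113 in KO_ERRg_wt. The 6 mutant clones were the highest, and both KO_ERRg_wt clones lay between them and the other 6. Cox7a2l rose against KO_ERRb_wt in KO_ERRb_DBDm6 (0.69 ± 0.0763, adjusted p = 7.3e-05), KO_ERRb_AF2M6 (0.61 ± 0.0762, adjusted p = 0.000123), KO_ERRb_DBDm3 (0.46 ± 0.0762, adjusted p = 0.00129) and KO_ERRg_wt (0.30 ± 0.0765, adjusted p = 0.0149). In KO_ERRg_wt against KO_mock the difference was 0.18 ± 0.0765, adjusted p = 0.078.

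**Figure D3:**
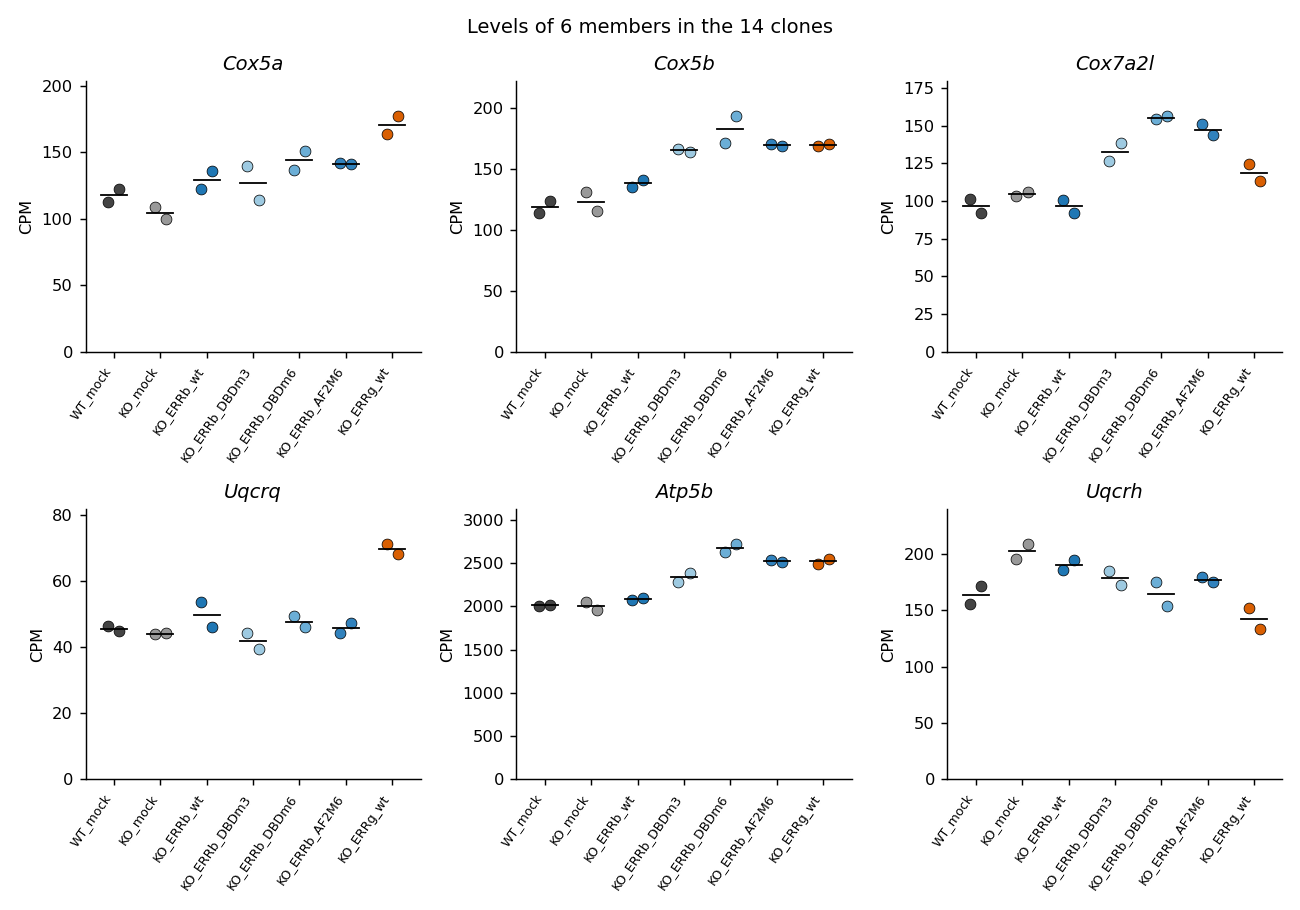
CPM (vertical axes from 0) of Cox5a, Cox5b, Cox7a2l, Uqcrq, Atp5b and Uqcrh in the 7 groups, with 1 point per clone and a line at the mean of 2 clones. Uqcrq stands at 71.2 and 68.2 CPM in KO_ERRg_wt and at no more than 53.7 elsewhere, while Uqcrh is lowest there.

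The isoforms of complex IV that are restricted to some tissues were low, except Cox6b2. Cox6a2 (mm10 chr7:128205435-128206366, minus strand), the heart and skeletal muscle isoform of subunit 6a, had 4 and 6 counts in WT_mock, 2 and 3 in KO_mock, 1 and 4 in KO_ERRb_wt, 15 and 0 in KO_ERRb_DBDm3, 13 and 3 in KO_ERRb_DBDm6, 8 and 3 in KO_ERRb_AF2M6, and 34 and 41 in KO_ERRg_wt. Both KO_ERRg_wt clones stood above every other clone although their totals were the smallest, at 1.22 and 1.62 CPM beside at most 0.285 CPM elsewhere. The difference was 4.61 ± 0.954, adjusted p = 0.00341 against KO_mock and 4.71 ± 0.951, adjusted p = 0.00496 against KO_ERRb_wt. With 5 counts in each of those reference groups, the size of the fold is imprecise.

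Cox7a1 (mm10 chr7:30184171-30186030, plus strand), the heart and skeletal muscle isoform of subunit 7a, was at 7.01 and 7.38 CPM in WT_mock, 4.00 and 4.72 in KO_mock, 7.12 and 5.92 in KO_ERRb_wt, 4.04 and 3.12 in KO_ERRb_DBDm3, 5.74 and 5.09 in KO_ERRb_DBDm6, 5.36 and 6.54 in KO_ERRb_AF2M6, and 10.4 and 9.31 in KO_ERRg_wt. The KO_ERRg_wt clones were the highest, KO_mock and KO_ERRb_DBDm3 held the 4 lowest, and the KO_ERRb_wt clones were within or below the range of WT_mock. Cox7a1 fell in KO_mock against WT_mock (-0.72 ± 0.179, adjusted p = 0.00962), rose in KO_ERRg_wt against KO_mock (1.17 ± 0.181, adjusted p = 0.000585) and KO_ERRb_wt (0.59 ± 0.177, adjusted p = 0.0311), and was lower in KO_ERRb_DBDm3 than in KO_ERRb_wt (-0.86 ± 0.18, adjusted p = 0.00451). Without KO_mock clone 12-1 the first of these calls was lost, and that of KO_ERRg_wt against KO_ERRb_wt was lost without clone 8-4, 14-1-10 or 14-11. Of 8 heart and skeletal muscle markers, 3 passed the filter on low counts and 0 were called in KO_ERRg_wt against KO_mock or KO_ERRb_wt. Their summed level was 3.98 to 4.34 CPM in KO_ERRg_wt, 4.19 to 4.85 in KO_mock, 4.26 to 5.92 in KO_ERRb_wt and 6.31 to 7.43 in WT_mock. Actc1 had 0 and 1 counts in the 2 KO_ERRg_wt clones, and Ckm 1 and 1.

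Cox6b2 (mm10 chr7:4751792-4753094, minus strand), the testis isoform of subunit 6b, was at 46.7 and 41.4 CPM in WT_mock, 34 and 37.5 in KO_mock, 44.5 and 32.3 in KO_ERRb_wt, 38.9 and 63.5 in KO_ERRb_DBDm3, 58.3 and 69.1 in KO_ERRb_DBDm6, 51.7 and 46.9 in KO_ERRb_AF2M6, and 49.2 and 49 in KO_ERRg_wt. KO_ERRb_DBDm6 had the highest mean, and the KO_ERRb_DBDm3 clones, 38.9 and 63.5 CPM, overlapped it. It rose in KO_ERRb_DBDm6 against KO_mock (0.83 ± 0.203, adjusted p = 0.00736) and against KO_ERRb_wt (0.73 ± 0.203, adjusted p = 0.0152). The first call was lost without KO_mock clone 12-1 or KO_ERRb_DBDm6 clone 10-26.

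Cox4i2, the lung isoform of subunit 4, had 15 and 7 counts in WT_mock, 5 and 5 in KO_mock, 15 and 6 in KO_ERRb_wt, 3 and 2 in KO_ERRb_DBDm3, 3 and 4 in KO_ERRb_DBDm6, 4 and 6 in KO_ERRb_AF2M6, and 2 and 1 in KO_ERRg_wt. It was lower in KO_ERRb_DBDm3 than in KO_ERRb_wt (adjusted p = 0.0346), a call that rests on 5 counts in the mutant group, that DESeq2 did not make and that was lost without KO_ERRb_wt clone 8-3 or without either mutant clone. Cox7b2, a testis isoform, had 5 and 17 counts in WT_mock, 3 and 4 in KO_mock, 2 and 7 in KO_ERRb_wt, 10 and 5 in KO_ERRb_DBDm3, 5 and 5 in KO_ERRb_DBDm6, 14 and 17 in KO_ERRb_AF2M6, and 0 and 5 in KO_ERRg_wt, with overlapping groups, and was called nowhere. Cox8c, the testis isoform of subunit 8, had 2 and 1 counts in WT_mock, 0 and 0 in KO_mock, 4 and 0 in KO_ERRb_wt, 0 and 1 in KO_ERRb_DBDm3, 0 and 0 in KO_ERRb_DBDm6, 6 and 0 in KO_ERRb_AF2M6, and 0 and 0 in KO_ERRg_wt, too few to test. For a group at 0 counts, such as most groups for Cox8b, the depth allows a level of up to 0.0289 to 0.0566 CPM (3 counts in the group, for counting error only).

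**Figure D4:**
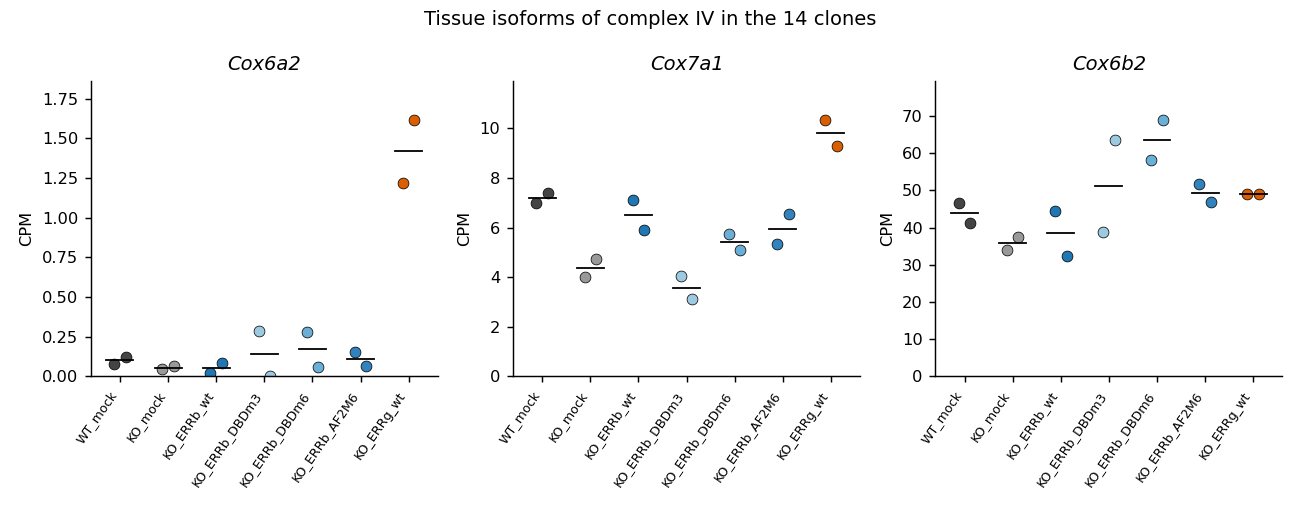
CPM (vertical axes from 0) of the tissue isoforms Cox6a2, Cox7a1 and Cox6b2 in the 7 groups, with 1 point per clone and a line at the mean of 2 clones. Both muscle isoforms are highest in the 2 KO_ERRg_wt clones, and Cox6b2 is highest in KO_ERRb_DBDm6.

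Cox4i1 (mm10 chr8:120668225-120674209, plus strand), the common isoform of subunit 4, is on chromosome 8, whose genes were lower as a whole in 4 groups. It was at 512 and 502 CPM in WT_mock, 522 and 529 in KO_mock, 546 and 506 in KO_ERRb_wt, 410.3 and 479 in KO_ERRb_DBDm3, 458 and 489.6 in KO_ERRb_DBDm6, 454 and 488 in KO_ERRb_AF2M6, and 458 and 448 in KO_ERRg_wt. Every clone of the mutant and ERR gamma groups lay below every clone of KO_mock and KO_ERRb_wt. Cox4i1 fell against KO_mock in KO_ERRb_DBDm3 (-0.24 ± 0.0763, adjusted p = 0.0388) and KO_ERRg_wt (-0.22 ± 0.0764, adjusted p = 0.0446), and the differences in KO_ERRb_DBDm6 (-0.15 ± 0.0762, adjusted p = 0.138) and KO_ERRb_AF2M6 (-0.16 ± 0.0762, adjusted p = 0.125) did not pass. The median of the 794 other tested genes of chromosome 8 was -0.53, -0.529, -0.493 and -0.552 in those comparisons, so that Cox4i1 stood 0.29, 0.31, 0.34 and 0.39 above its chromosome, and 74.1% to 78.7% of those genes were lower than it. Relative to the chromosome, its difference thus had the opposite sign. How far the chromosome's shift accounts for the fall was not tested.

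**Figure D5:**
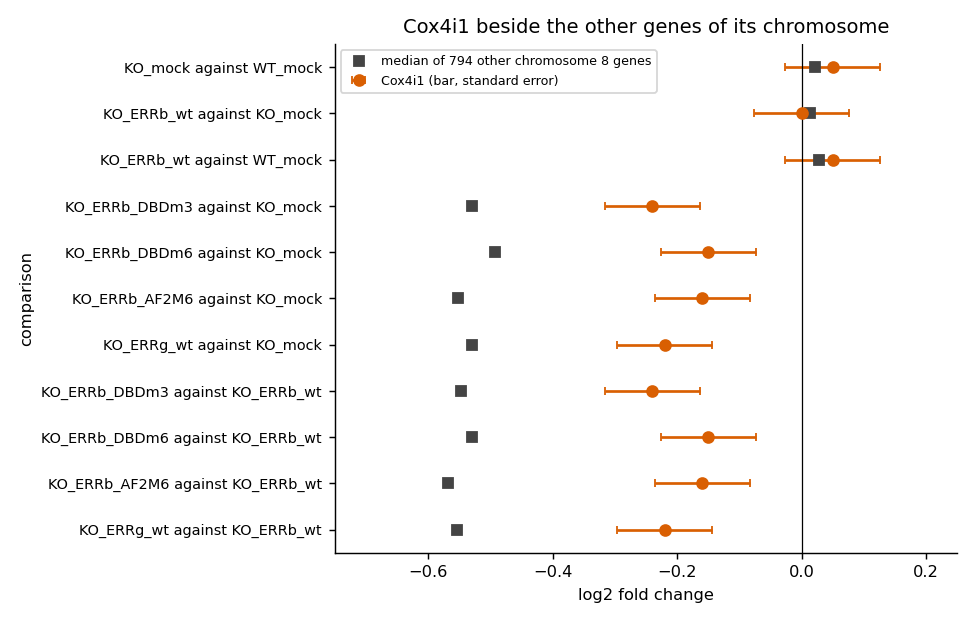
Log2 fold change of Cox4i1 with its standard error, and the median of the 794 other tested genes of chromosome 8, in the 11 comparisons. In the 8 comparisons of the mutant and ERR gamma groups the chromosome median lies between -0.493 and -0.568 and Cox4i1 between -0.15 and -0.24.

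Complex V is built from the F1 head that makes ATP, a ring of c subunits that turns in the membrane, a peripheral stalk and small membrane subunits. Atp5b (mm10 chr10:128083307-128090388, plus strand), the catalytic beta subunit, was at 2002 and 2021 CPM in WT_mock, 2050 and 1953 in KO_mock, 2068 and 2093 in KO_ERRb_wt, 2286 and 2384 in KO_ERRb_DBDm3, 2625 and 2721 in KO_ERRb_DBDm6, 2542 and 2512 in KO_ERRb_AF2M6, and 2491 and 2547 in KO_ERRg_wt. All 8 mutant and ERR gamma clones lay above the 6 others. Atp5b rose against KO_mock in KO_ERRb_DBDm6 (0.42 ± 0.0509, adjusted p = 0.000119), KO_ERRb_AF2M6 (0.34 ± 0.0508, adjusted p = 0.000495), KO_ERRg_wt (0.33 ± 0.0508, adjusted p = 0.000557) and KO_ERRb_DBDm3 (0.22 ± 0.0508, adjusted p = 0.00909), and in each of them against KO_ERRb_wt.

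Atp5a1, the alpha subunit, was at 1690 and 1632 CPM in WT_mock, 1643 and 1675 in KO_mock, 1662 and 1657 in KO_ERRb_wt, 1945 and 1823 in KO_ERRb_DBDm3, 2059 and 2109 in KO_ERRb_DBDm6, 1999 and 1842 in KO_ERRb_AF2M6, and 2057 and 1950 in KO_ERRg_wt. As for Atp5b, all 8 mutant and ERR gamma clones lay above the 6 others, with those of KO_ERRb_DBDm6 the highest. Atp5a1 rose against KO_mock in KO_ERRb_DBDm6 (0.33 ± 0.059, adjusted p = 0.00121), KO_ERRg_wt (0.27 ± 0.059, adjusted p = 0.00416), KO_ERRb_AF2M6 (0.21 ± 0.0589, adjusted p = 0.0158) and KO_ERRb_DBDm3 (0.18 ± 0.0589, adjusted p = 0.0406).

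Atp5c1, the gamma subunit that forms the rotating shaft, was at 353 and 342 CPM in WT_mock, 373 and 385 in KO_mock, 353 and 359.6 in KO_ERRb_wt, 435 and 388 in KO_ERRb_DBDm3, 477 and 459 in KO_ERRb_DBDm6, 454 and 434 in KO_ERRb_AF2M6, and 435 and 423 in KO_ERRg_wt. The KO_ERRb_DBDm6 clones were the highest. It rose by 0.39 ± 0.0623, adjusted p = 0.000564 in KO_ERRb_DBDm6 against KO_ERRb_wt and by 0.31 ± 0.0623, adjusted p = 0.00259 against KO_mock. Atp5d, the delta subunit, ran from 124 to 159.8 CPM and rose against KO_mock in KO_ERRg_wt (0.29 ± 0.0888) and KO_ERRb_DBDm6 (0.25 ± 0.0884). Atp5e, the epsilon subunit, ran from 63 to 76.8 CPM and was called nowhere.

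The c subunit is encoded by 3 genes, whose mature proteins are the same, and they did not move alike. Atp5g2 was at 63.5 and 55.3 CPM in WT_mock, 57.9 and 52 in KO_mock, 58.5 and 49.8 in KO_ERRb_wt, 62.6 and 77.4 in KO_ERRb_DBDm3, 77 and 78.5 in KO_ERRb_DBDm6, 71.3 and 69.7 in KO_ERRb_AF2M6, and 62.8 and 63.6 in KO_ERRg_wt. Clones of the 3 mutant groups lay above those of KO_mock and KO_ERRb_wt. It rose against KO_mock in KO_ERRb_DBDm6 (0.50 ± 0.11, adjusted p = 0.00403), KO_ERRb_AF2M6 (0.36 ± 0.11, adjusted p = 0.0251) and KO_ERRb_DBDm3 (0.35 ± 0.11, adjusted p = 0.0388).

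Atp5g3 (mm10 chr2:73908447-73911326, minus strand), whose promoter holds the extended ERR motif shown above, was at 146 and 164 CPM in WT_mock, 185 and 183 in KO_mock, 192 and 193 in KO_ERRb_wt, 194 and 180.2 in KO_ERRb_DBDm3, 202 and 187 in KO_ERRb_DBDm6, 199 and 198 in KO_ERRb_AF2M6, and 201 and 195 in KO_ERRg_wt. Both WT_mock clones lay below all other clones. Atp5g3 was higher in KO_mock (0.25 ± 0.0686, adjusted p = 0.0156) and in KO_ERRb_wt (0.31 ± 0.0686, adjusted p = 0.0179) than in WT_mock, and was called in none of the other 9 comparisons. Atp5g1 ran from 93.9 to 127 CPM and rose in KO_ERRg_wt against KO_ERRb_wt (0.28 ± 0.0863, adjusted p = 0.0331).

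In the peripheral stalk, Atp5f1, the b subunit, was at 274 and 267 CPM in WT_mock, 272 and 276 in KO_mock, 283 and 282 in KO_ERRb_wt, 305 and 309 in KO_ERRb_DBDm3, 347 and 349 in KO_ERRb_DBDm6, 346 and 313 in KO_ERRb_AF2M6, and 337 and 328 in KO_ERRg_wt. Clones of KO_ERRb_DBDm6, KO_ERRb_AF2M6 and KO_ERRg_wt lay above those of KO_mock (0.34 ± 0.057, adjusted p = 0.000782, 0.26 ± 0.0569, adjusted p = 0.00407 and 0.28 ± 0.0571, adjusted p = 0.00314).

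Atp5h, the d subunit, was at 175 and 175 CPM in WT_mock, 196 and 209 in KO_mock, 192 and 191 in KO_ERRb_wt, 221 and 207 in KO_ERRb_DBDm3, 223 and 224 in KO_ERRb_DBDm6, 218 and 219 in KO_ERRb_AF2M6, and 234 and 228 in KO_ERRg_wt. WT_mock clones were the lowest. It was higher in KO_mock than in WT_mock (0.21 ± 0.0544, adjusted p = 0.0111) and rose in KO_ERRg_wt against KO_ERRb_wt (0.27 ± 0.0546, adjusted p = 0.00479). Of its 100-base exon windows, 70.5% matched no other gene, so part of its reads could have been left uncounted.

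Atp5o, the subunit that confers oligomycin sensitivity, was at 249 and 251 CPM in WT_mock, 293 and 298 in KO_mock, 280.1 and 278 in KO_ERRb_wt, 291 and 259 in KO_ERRb_DBDm3, 301 and 288 in KO_ERRb_DBDm6, 296 and 270.3 in KO_ERRb_AF2M6, and 302 and 277 in KO_ERRg_wt. WT_mock clones were again the lowest, and the difference to KO_mock was 0.24 ± 0.0713, adjusted p = 0.021. Atp5j, coupling factor 6, ran from 49.1 to 61 CPM and was called nowhere. Among the small membrane subunits, Atp5k, the e subunit, ran from 102 to 136 CPM and fell against KO_mock in KO_ERRg_wt (-0.27 ± 0.0743, adjusted p = 0.0154) and KO_ERRb_DBDm6 (-0.20 ± 0.0739, adjusted p = 0.0443). Atp5j2, the f subunit, ran from 156 to 184 CPM and was called nowhere. Atp5l, the g subunit, ran from 0.671 to 1.34 CPM, but only 38.7% of its 100-base windows were unique to it and reads mapping to several places were not counted, so its level is uncertain.

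The 2 genes matched by name only behaved differently. Atp5s was at 7.19 and 6.55 CPM in WT_mock, 3.09 and 3.66 in KO_mock, 5.72 and 3.88 in KO_ERRb_wt, 3.28 and 3.53 in KO_ERRb_DBDm3, 5.16 and 6.19 in KO_ERRb_DBDm6, 4.45 and 3.18 in KO_ERRb_AF2M6, and 5.34 and 4.26 in KO_ERRg_wt. WT_mock clones were the highest and KO_mock clones among the lowest. It fell in KO_mock against WT_mock (-1.02 ± 0.23, adjusted p = 0.00582) and rose in KO_ERRb_DBDm6 against KO_mock (0.75 ± 0.23, adjusted p = 0.0223). Atp5sl ran from 39.5 to 49.8 CPM and was lower in KO_ERRb_DBDm6 than in KO_ERRb_wt (-0.28 ± 0.0736, adjusted p = 0.011).

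Genes that work with these complexes were taken from lists chosen by function. The counts that follow stand beside 20.8% of all genes higher and 20.6% lower in KO_ERRb_DBDm6 against KO_mock, and 20% higher and 18.3% lower in KO_ERRg_wt. Of 21 mobile carriers, inhibitors and subunits outside the symbol rule, 4 were higher and 3 lower in KO_ERRb_DBDm6 against KO_mock, and 5 higher and 1 lower in KO_ERRg_wt. Atpif1, the inhibitor of ATP hydrolysis by ATP synthase, was 0.51 ± 0.0884, adjusted p = 0.00103 in KO_ERRb_DBDm6. Ndufa4, now counted as a subunit of complex IV, and Cycs, cytochrome c, lie on chromosome 6 and stood at -1.07 ± 0.155 and -1.10 ± 0.159 in KO_ERRb_DBDm6 against KO_mock, where the median of chromosome 6 was -0.933. In KO_ERRg_wt the same genes stood at -0.39 ± 0.154 and -0.53 ± 0.158, beside a chromosome median of -0.377. Cyct, the testis form of cytochrome c on chromosome 2, rose there by 1.06 ± 0.251, adjusted p = 0.007.

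Of 4 complex II assembly factors, 2 fell in KO_mock against WT_mock (19.4% of all genes fell) and 1 rose in KO_ERRb_wt against KO_mock (1.85% of all genes were called). That was Sdhaf1, which helps to insert iron-sulfur clusters into Sdhb. Its level was 15.7 and 15.8 CPM in WT_mock, 13.2 and 10.8 in KO_mock, 16.8 and 17 in KO_ERRb_wt, 13.6 and 13.1 in KO_ERRb_DBDm3, 11.2 and 11.7 in KO_ERRb_DBDm6, 11.4 and 10.9 in KO_ERRb_AF2M6, and 14.9 and 16 in KO_ERRg_wt. Every KO_ERRb_wt clone lay above all other clones, and those of KO_ERRb_DBDm6 and KO_ERRb_AF2M6 stood between 10.9 and 11.7 CPM. It fell in KO_mock (-0.39 ± 0.109, adjusted p = 0.0163), rose with wild-type ERR beta (0.49 ± 0.109, adjusted p = 0.0473) and with ERR gamma (0.36 ± 0.11, adjusted p = 0.0239) against KO_mock, and was lower in KO_ERRb_DBDm6 (-0.56 ± 0.109, adjusted p = 0.002), KO_ERRb_AF2M6 (-0.60 ± 0.109, adjusted p = 0.00124) and KO_ERRb_DBDm3 (-0.35 ± 0.108, adjusted p = 0.0307) than in KO_ERRb_wt. Sdhaf4, which binds Sdha before assembly, fell in KO_mock (-0.88 ± 0.133, adjusted p = 0.000868) and rose with ERR gamma (0.68 ± 0.135, adjusted p = 0.0027). Another of the 4 factors was lower in KO_ERRg_wt than in KO_mock (-0.68). In each mutant group 1 of the 4 was lower and 0 higher than in KO_mock. The lowest log2 difference was -1.02 in KO_ERRb_DBDm3, -1.17 in KO_ERRb_DBDm6 and -1.47 in KO_ERRb_AF2M6. Of all genes 13.3%, 20.6% and 19.1% were lower there. Genes of chromosomes 6 and 8 were lower as a whole in these comparisons and in KO_ERRg_wt against KO_mock. The chromosome of the lowest factor is not given here, and the part of those shifts was not tested. Of 6 complex III factors 2 were higher and 0 lower in KO_ERRg_wt against KO_mock, with Lyrm7, a chaperone of the Rieske protein, at 1.18 ± 0.303, adjusted p = 0.0104. Of 25 complex IV factors 5 were higher and 4 lower (20% and 18.3% of all genes), among them Surf1 (0.77 ± 0.118, adjusted p = 0.000525), and Pet100 (-0.67 ± 0.0883) and Cmc2 (-0.68 ± 0.101) on chromosome 8. Of 3 complex V factors 2 were higher and 1 lower, with Tmem70 at 0.58 ± 0.153, adjusted p = 0.0122, Atpaf1 at 0.55 ± 0.122 and Atpaf2 at -0.33 ± 0.0814.

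Of 16 tested regulators of respiratory gene transcription, 4 were higher and 4 lower in KO_ERRg_wt against KO_mock (20% and 18.3% of all genes). The list includes Esrrg, the gene carried by KO_ERRg_wt, and Esrrb, the targeted gene. The rise of Esrrg, the largest of the list at 15.97, was given by the construct, so the count is not free of the design. Esrra and Ppargc1a are named here for their known roles, with their values already seen. Esrra, encoding ERR alpha, ran from 24 to 29.7 CPM and was not called in any comparison. Ppargc1a, the coactivator known for inducing these genes in muscle, had at most 5 counts in a clone. Nrf1, on chromosome 6, was -0.41 ± 0.0973, and Gabpa, the DNA-binding part of NRF2, rose by 0.38 ± 0.0651, adjusted p = 0.00112. Complex I, counted over 36 subunits, had 15 higher and 6 lower in KO_ERRb_DBDm6 (20.8% and 20.6% of all genes) and 17 higher and 1 lower in KO_ERRg_wt (20% and 18.3%) against KO_mock, with medians of 0.15 and 0.19.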

How the data were processed

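The authors deposited 1 table of read counts per gene (total RNA depleted of ribosomal RNA, stranded, single-end 100-base reads). The submitters' processing notes name STAR 2.7.8a and mm10. Counting was by gene name on the reverse strand with featureCounts 2.0.1, per the file headers (2.0.10 in the processing notes), with reads overlapping several genes counted for each and reads mapping to several places left out. Members and gene lists were chosen with earlier results of these data known.

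From these counts, the libraries of a clone were summed, because the labels' rep numbers name libraries within a clone. p-values therefore measure the spread between clones within groups, estimated over all 7 groups together (7 residual degrees of freedom). Library totals are given in the report, and clone totals were 25103562 to 54105869 counts. The 14 clones were fitted together with edgeR 4.0.16 in R 4.3.3 (filterByExpr, TMM factors 0.972 to 1.05, robust quasi-likelihood test, biological coefficient of variation 0.116), with Benjamini-Hochberg adjustment over 15238 genes and a threshold of 0.05. The fit was tested on simulated data. Standard errors were derived from the F statistic. Alternatives were RLE size factors, library totals, TMM without chromosomes 6, 8 and 14, no filter, DESeq2 1.42.0, the 2 groups alone, limma-voom (limma 3.58.1) on single libraries with and without the rep number, and each clone left out.

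Every member is named. Values in every clone are given for members called in KO_mock against WT_mock or KO_ERRb_wt against KO_mock, members called in 3 or more of the 11 comparisons, the highest per kilobase of each complex and the tissue isoforms. Other members are given by range, and of other lists up to 4 genes with the smallest p per comparison are named. Promoter windows came from RefSeq, GRCm38.p6. No protein sequences were used here.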

Additional observations from a re-analysis of the deposited data

Results flagged for a closer look

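The summed level of complex V in the second library of KO_ERRb_wt clone 8-3 was 5796 CPM, while the other 3 libraries of the group stood at 5711 to 5715 CPM. The gap to the nearest library was 0.953 of the group's range. Of 24 groups of libraries examined this was 1, and chance gives about 1 in 20.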

How the results depend on the processing

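With only the 2 groups compared in the fit, the number of members called was 14 in KO_mock against WT_mock, 1 in KO_ERRb_wt against KO_mock, 35 in KO_ERRg_wt against KO_mock, and 0 in KO_ERRb_DBDm3 against KO_mock and 0 against KO_ERRb_wt (5 and 4 at an unadjusted p below 0.05 by edgeR). The construction differs by fewer clones, and the cause was not tested further. The share of all genes called in these fits was not computed, so the counts do not set members against genes in general. Limma-voom on single libraries without the rep number called 2 in KO_ERRb_wt against KO_mock and 2 against WT_mock. With the rep number as a replicate block it called 1 in KO_ERRb_wt against KO_mock, and it changed no other count by over 1.5 times. The titles of the KO_ERRg_wt libraries carry no rep number, so that fit left them out. Their column names end in 2, as those of second libraries do elsewhere. Over all genes the rep numbers paired the libraries little. Correlations of deviations between same-numbered libraries of 66 pairs of clones were -0.121 to 0.352, with a median of 0.00345 and 7 over 0.1. In the sums of complexes III, IV and V, however, library 1 exceeded library 2 in most clones. For complex IV these were 2387 and 2275 CPM in clone 5-2. The order was reversed in clones 12-3 (2358 and 2451) and 8-3 (2489 and 2515). KO_ERRg_wt may thus differ from the other groups in library number too, and the part of this was not tested. All other counts under RLE size factors, library totals, TMM without chromosomes 6, 8 and 14, no filter and DESeq2 were within 1.5 times, and these scalings moved the median of all genes by at most 0.071.

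Leaving out each clone in turn gave 1 to 6 called members in KO_mock against WT_mock, 0 in KO_ERRb_wt against KO_mock and 0 to 1 against WT_mock. Against KO_mock it gave 2 to 11 in KO_ERRb_DBDm3, 16 to 20 in KO_ERRb_DBDm6, 9 to 11 in KO_ERRb_AF2M6 and 15 to 18 in KO_ERRg_wt. Against KO_ERRb_wt it gave 4 to 10, 14 to 18, 7 to 10 and 9 to 18 in the same order. The lone clone was assumed to vary like the other groups. Of 144 single calls, 59 were kept whichever clone was left out and 55 under every setting. Each call lost kept its direction, except that subtracting the chromosome 8 median turned Cox4i1 to 0.29 in KO_ERRb_DBDm3 and 0.31 in KO_ERRg_wt against KO_mock, and to 0.3 in KO_ERRb_DBDm3 against KO_ERRb_wt. Depth limits Cox4i2, Cox6a2, Cox7b2 and Cox8c, whose counts per clone were too few for a precise fold.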
